A study of Arabidopsis thaliana with 36 samples.

Results

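Protophloem cells of Arabidopsis thaliana roots, sorted from plants kept on standard medium, were compared with 5 other root cell populations across all probe sets of the ATH1 expression array. The comparison uses the 18 arrays of the standard medium out of 36 in the series: 3 protophloem arrays and 15 arrays of the other populations, 3 each. All plants were of the Columbia ecotype, their roots were taken 6 days after germination, and every line carries a GFP reporter from which cells were sorted after their walls were digested. The protophloem line is S32, and the others mark epidermis with lateral root cap (WER::GFP), columella (PET111), cortex (CORTEX), endodermis with quiescent centre (SCR::GFP) and stele (WOL::GFP). A population is what its reporter marks, so the endodermis arrays also hold quiescent centre cells and the epidermis arrays lateral root cap cells. The labels number 3 replicates a population without saying that they were separate plantings, so p-values measure the spread between these samples, which may be technical. The other 18 arrays come from the same lines after 1 h on 140 mM NaCl and are used here only as separate samples in which the protophloem contrast could be measured again.

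Protophloem is the first phloem to mature in the root tip and lies inside the vascular cylinder, the stele. Its sieve elements differentiate close to the meristem, thicken their walls and then lose the nucleus and much of their cytoplasm while keeping a plasma membrane, modified plastids and mitochondria. Mature sieve tubes deliver sugars, amino acids and signalling molecules to the growing tip, and short CLE peptides and membrane-associated proteins such as OCTOPUS and BREVIS RADIX are known regulators of their formation.

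Signals are linear MAS5 values that share 1 trimmed mean (250.018 to 250.029 on the 36 arrays), so a gene's value is relative to the bulk of transcripts on its array. Array medians were 75.6 to 93.4 in protophloem and 62.1 to 95.6 in the others. On log2 signals the protophloem replicates correlated at 0.914, 0.951 and 0.938 across probe sets. One library stood apart: stele replicate 3 correlated at 0.853 and 0.857 with its own replicates against 0.968 between those, and the summed signal of its 2 epidermis markers was 2213, above the 858 to 912 of the epidermis arrays. Without that library 892 probe sets in place of 910 were above every other population and 334 in place of 411 were below, at least 2-fold and past the test against each. Replicate 3 also had the highest sum of epidermis markers in 5 of the 6 populations on standard medium, in protophloem 71.6 against 31.9 and 19.7. With replicates 1 and 2 alone 741 were above every other population and 328 were below. The GAPDH 5'/3' signal ratio, a measure of how completely the amplified RNA extends to the 5' end, was 0.0830, 0.0195 and 0.0473 on the protophloem arrays and 0.0884 to 1.71 on the others. That difference was a log2 ratio of -2.99 (exact permutation test over arrays, two-sided, n = 3 and 15, p = 0.00245, adjusted over 3 controls p = 0.00735). The test treated the 18 arrays as interchangeable, although they come in 6 populations of 3. Epidermis lay at the other end with 1.41 to 1.71. The p-value therefore does not set protophloem apart from other differences between populations. The actin ratio differed by 0.28 (exact p = 0.668) and the ubiquitin ratio by -0.50 (exact p = 0.135) on the log2 scale. As the protophloem arrays hold the lowest GAPDH ratios, a fit with the ratio as a covariate is given for most of the gene lists described. Of 128 called genes named here, 48 lost their call in it and 1 changed sign, and 17 of the 50 lower ones kept their call. All 3 protophloem ratios lie below the 15 others, so the covariate overlaps with the contrast and widens its standard errors. A lost call therefore need not mean a smaller difference. AGL42 went from 0.72 to 1.33 (SE 0.44) and CLE44 from 2.38 to 0.78 (SE 0.39), and both lost their calls. Fewer cells of a type and less RNA of a gene per cell cannot be told apart in such samples.

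The phloem markers tested were high and the tested markers of the outer tissues low in the sorted cells. Marker coverage was thin. Of the phloem list 4 genes were named on the array and 3 were tested, and over all lists given by gene identifiers 23 of 140 genes had a probe set. CLE26, a root phloem peptide gene, and the 2 unsymbolled phloem-list genes AT5G02460 and AT2G44830 were all higher in protophloem than in every other population. CLE26 was admitted to the test by its protophloem arrays alone. The summed signal of the phloem list was 2528 to 4436 on the protophloem arrays, 248 to 454 on the stele arrays and at most 159 elsewhere. OPS (OCTOPUS) had 41.0 to 95.7 in protophloem and at most 46.4 elsewhere, and it missed the filter on low signals. The cortex marker AT1G62500, which also missed it, had 25.5 to 56.5 in protophloem and at most 30.0 elsewhere. Of the markers of other cell types, EXPA7 and EXPA18, root hair expansins, were lower by 2.07 and 2.25 on the log2 scale, and their summed signal of 19.7 to 71.6 was below all 15 other arrays. GSO1, a receptor kinase of the Casparian strip pathway, was lower by 1.73, AT4G28100 by 0.91 and the cortex marker AT1G09750 by 1.33. The quiescent centre gene AGL42 was higher by 0.72 (SE 0.19, adjusted p = 0.00344), with 201, 103 and 128 in protophloem against 37.0 to 181, so the groups overlap. With the covariate EXPA7, EXPA18, GSO1, AT1G09750 and AGL42 lost their calls, and the 3 phloem genes and AT4G28100 kept theirs. PHV, a class III homeodomain-leucine zipper regulator of vascular patterning, had 0.54 (adjusted p = 0.0467) and passed in 12 of 34 alternative settings. LHW, a vascular bHLH factor, had -0.05 (adjusted p = 0.889).

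Protophloem differed from the other populations in many genes, and in the contrast used the largest differences were excesses. In a linear model of log2(signal + 16) with a mean for each population (limma, Benjamini-Hochberg adjustment over 16743 tested probe sets), 3729 probe sets (22.3%) were higher and 4899 (29.3%) were lower in protophloem than in the unweighted mean of the other 5 populations at an adjusted p under 0.05, together 8628 (51.5%). At least 2-fold differences numbered 2121 higher (12.7%) and 2494 lower (14.9%). Lower calls were the more numerous, but 211 called probe sets were higher by more than 4 on the log2 scale against 14 lower by as much, and 87 were higher by more than 6 against 0 lower. The contrast favours such excesses. A gene high in protophloem alone keeps its full height, while one high in a single other population is averaged over 5. Whether another population would give the same imbalance was not tested. The 3 protophloem arrays lay above all 15 others for 1281 probe sets (7.65%) and below all of them for 851 (5.08%). The median difference of all probe sets was -0.10. With the GAPDH ratio as a covariate 1203 were higher and 772 were lower. Among the 9341 tested probe sets that name 1 gene, 23.3% were higher and 26.7% lower, and 6.93% and 4.23% with the covariate. The counts of gene lists below stand against these shares.

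A stricter call asked for a difference of at least 2-fold and an adjusted p under 0.05 against each of the 5 populations. By it, 910 probe sets (5.44%) were above every other population and 411 (2.45%) were below. Among the 910, the population nearest to protophloem was columella for 307, stele for 295, endodermis for 190, cortex for 68 and epidermis for 50. Pair by pair, probe sets higher or lower in protophloem numbered 5070 (30.3%) and 4982 (29.8%) against epidermis, and 4714 (28.2%) and 4157 (24.8%) against cortex. They numbered 3172 (18.9%) and 3536 (21.1%) against endodermis, 2670 (15.9%) and 3779 (22.6%) against columella, and 2562 (15.3%) and 4303 (25.7%) against stele. Over mean profiles, stele was most like protophloem (r = 0.764 across probe sets) and epidermis least (0.550), with endodermis at 0.704, columella at 0.696 and cortex at 0.614. Of the 910 probe sets 536 name 1 gene, but only 109 of those have a symbol. Among genes on chromosomes 1 to 5 those above every other population numbered 129 of 2398, 86 of 1391, 96 of 1891, 75 of 1343 and 115 of 2224 tested, so none of the 5 chromosomes held most of them. With the GAPDH covariate 530 probe sets were above every other population, 432 of them among the 910, and 101 were below, 33 of them among the 411.

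The 24 genes with the largest excess were taken among called 1-gene probe sets whose protophloem arrays lay above all 15 others. They had at least 3525 on every protophloem array and at most 435 on any other. AT1G05770 had signals of 11849, 18001 and 11012 on the protophloem arrays and 1.31 to 177 (median 3.62) on the 15 others, a log2 difference of 8.77 (SE 0.40, adjusted p = 2.25e-12). AT3G20450 had 6507, 11436 and 7520 against 1.59 to 25.9, a difference of 8.53 (SE 0.20, adjusted p = 9.65e-16). GSTF4 (AT1G02950), a phi-class glutathione S-transferase, had 6578, 7791 and 8611 against 0.807 to 27.1, a difference of 8.33 (SE 0.23). AT3G20450 and GSTF4 passed the filter on low signals through their 3 protophloem arrays alone, so protophloem itself brought them into the test. As the lack of overlap was a condition of the choice, the separation of the arrays is not itself a result.

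**Figure D1:**
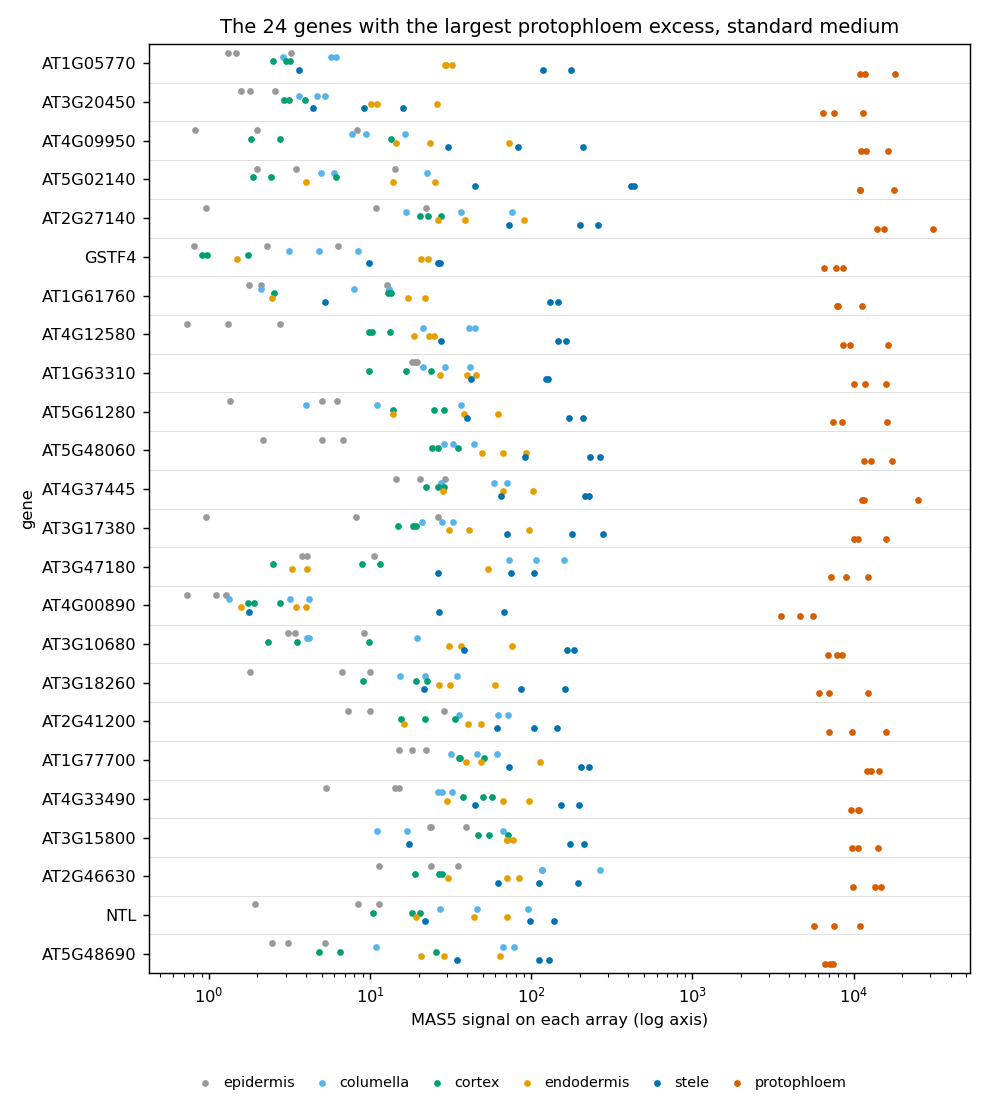
MAS5 signal (log axis) on each of the 18 standard-medium arrays, 1 point per array and colour by population. Shown are the 24 genes with the largest protophloem excess among those chosen for protophloem arrays above all others. The protophloem points lie between 3525 and 31196, and those of the other populations reach at most 435, with stele the next highest for 21 of the 24 genes.

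Across the 24, protophloem signals ran from 3525 to 31196, and the highest signal of any other array was between 25.9 and 435. Stele held the next highest mean for 21 of them, columella for AT3G47180 and AT2G46630, and endodermis for AT3G20450. On stele replicates 1 and 2 the median of the 24 was 142 and 171, and on replicate 3, the library that stood apart, it was 36.3. AT2G27140 reached 31196 on protophloem array 2, and its difference from stele was 6.76 on the log2 scale. AT4G09950, AT5G02140, AT1G61760, AT4G12580 and AT1G63310 had differences of 8.53, 8.42, 8.18, 8.12 and 7.98. All 24 had differences of 7.34 or more, and each of them kept its call with the GAPDH covariate, at 5.58 to 8.69. The smallest of the 5 pairwise differences was 8.06 for AT3G20450, against endodermis, and 7.72 for GSTF4, against stele. Where the other arrays hold such low signals, the size of a difference depends on the offset of 16: with other settings the difference from the mean of the others ran from 6.87 to 10.3 for AT3G20450 and from 6.72 to 10.2 for GSTF4. Neither gene was tested in settings that left out a protophloem array, as each then missed the filter.

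Only 2 of the 24 have a symbol, GSTF4 and NTL (AT1G11570), a protein of the NTF2-like family named after the nuclear import factor for Ran. NTL had 5718, 10963 and 7574 in protophloem against 1.94 to 138, a difference of 7.36 (SE 0.35). A further gene, AT4G00890, is listed in RefSeq under the synonym ATXYN5. It had 5591, 4658 and 3525 against 0.732 to 67.4. The remaining genes of the 24 carry no function in the annotation used here.

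Among signalling peptides, 4 of the 4 CLE genes tested were higher. CLE26 passed the filter on low signals through its protophloem arrays alone, so the filter had a part in this count. CLE26 had 1333, 3338 and 2582 in protophloem against 1.78 to 36.4 elsewhere, a difference of 6.50 (SE 0.25, adjusted p = 2.17e-13). CLE41 and CLE44, which encode the same peptide, TDIF, made in phloem and sensed by the cambium, were higher by 4.28 (SE 0.22) and 2.38 (SE 0.23). CLE41 had 2221, 3277 and 2887 against 42.8 to 404, and CLE44 had 175, 382 and 252 against 23.9 to 66.3. For these 3 genes no array of another population reached the protophloem arrays, a separation found for 7.65% of all probe sets tested. CLE40, known for its part in keeping the distal root stem cells, was highest in columella (101 ± 59.3, SD, n = 3), and its difference of 0.69 (adjusted p = 0.0325) turned to -0.43 (adjusted p = 0.700) with the GAPDH covariate. CLE44 also lost its call there (0.78, adjusted p = 0.222), so 2 of the 4 stayed called, CLE26 and CLE41. CLE21 and CLE27 missed the filter on low signals, CLE21 with 7.94 to 60.8 in protophloem and at most 15.4 elsewhere.

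RALF peptides, which bind receptor kinases and alter wall pH, were mixed: 2 of 7 were higher and 1 was lower. RALFL32 had 1371, 2818 and 2976 in protophloem, and its highest signal elsewhere was 1410, so the groups overlap. Its difference was 3.30 (SE 0.32, adjusted p = 8.47e-08). RALFL34 was lower by 1.60 (SE 0.28), a call lost with the covariate (adjusted p = 0.107). The BRX-family gene ATBRXL2, a relative of the protophloem regulator BREVIS RADIX, had 1491, 1050 and 1051 against 83.0 to 308, a difference of 2.99 (SE 0.19), and was above every other population.

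SWEET sugar transporters, which let sugars pass membranes down their gradient, were mostly higher: 8 of 11 tested were higher and 2 were lower, where 23.3% and 26.7% of 1-gene probe sets were. SWEET11, a sucrose exporter known from leaf phloem, had 2806, 919 and 1471 in protophloem and at most 353 elsewhere, a difference of 3.55 (SE 0.30, adjusted p = 1.22e-08). SWEET8 was higher by 3.70 (SE 0.27) and SWEET3 by 3.08 (SE 0.22), and both were above every other population. SWEET14 and SWEET13, also sucrose transporters, were higher by 1.85 and 0.79, both with overlapping groups and with columella as the nearest population. The 2 that were lower are vacuolar: SWEET17 by 1.20 (SE 0.23) and SWEET16 by 0.81 (SE 0.23). SWEET2, the other vacuolar member, had -0.46 (adjusted p = 0.0703). The list's median was 0.76, and it was -0.25 with the GAPDH covariate, in which SWEET8, SWEET11 and SWEET3 stayed called higher and 0 were lower.

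The tonoplast sugar carriers went separate ways. TMT1 was lower by 2.78 (SE 0.23), with 115, 138 and 137 in protophloem against 279 to 3077. TMT2 was higher by 1.59 (SE 0.24) and TMT3 by 1.11 (SE 0.26), the last not called with the covariate. Of the starch-breakdown genes, AMY1, an alpha-amylase, had 418, 277 and 296 against 8.75 to 58.1, a difference of 2.93 (SE 0.22). AMY1 passed the filter on low signals through its protophloem arrays alone. The symbol PWD, for phosphoglucan water dikinase, stands for 2 loci on the array: AT4G24450 was higher by 3.34 and AT5G26570 had -0.08 (adjusted p = 0.735). DPE1, the plastid disproportionating enzyme, was lower by 1.04 and highest in columella, whose cells store starch. With the covariate AMY1 and AT4G24450 stayed called and DPE1 did not.

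**Figure D2:**
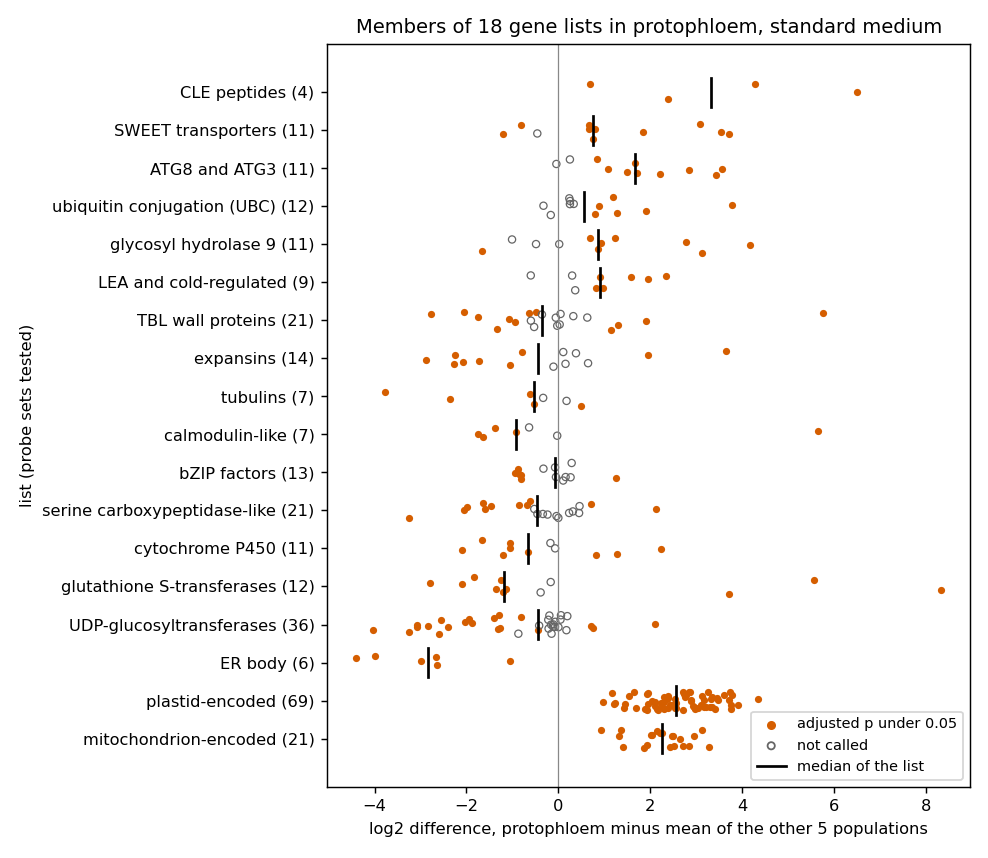
Log2 difference between protophloem and the mean of the other 5 populations (horizontal axis) for each tested probe set of 18 gene lists; filled points passed an adjusted p of 0.05, open points did not, and bars are list medians. The plastid-encoded, mitochondrion-encoded and ATG8 lists lie to the right and the ER body list to the left. The glutathione S-transferase, TBL and calmodulin-like lists have medians below 0 but reach up to 8.33, 5.77 and 5.65.

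Wall genes split by family. Endoglucanases of glycosyl hydrolase family 9, which act on cellulose, were higher for 7 of 11 and lower for 1. Among 1-gene probe sets 23.3% were higher and 26.7% lower. GH9B8 had 2652, 2652 and 2235 against 3.30 to 822, a difference of 4.17 (SE 0.34), and GH9B18 was higher by 2.77. GH9B6 was higher by 3.12 but peaked in columella (2696 ± 1167, SD, n = 3), and GH9C3 was lower by 1.67. With the covariate 5 of the 11 were higher and 0 lower. Among TBL proteins, many of which acetylate wall polysaccharides, 4 of 21 were higher and 8 lower. TBL45 had 6007, 5413 and 5404 against 14.6 to 379, a difference of 5.77 (SE 0.22, adjusted p = 1.85e-13), whereas TBL32 was lower by 2.77. No other population reached the TBL45 level of protophloem, and with the covariate 4 of the 21 were higher and 3 lower, TBL45 and TBL32 among them.

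Expansins, which loosen walls during growth, were lower for 7 of 14 and higher for 2, where 26.7% and 23.3% of 1-gene probe sets were. The expansin-like EXLA1 had 6432, 8405 and 6257 against 92.4 to 3503, a difference of 3.66 (SE 0.31), while its relative EXLA2 was lower by 2.26. EXPA15 was higher by 1.95, but its highest mean was in stele (1838 ± 438, SD, n = 3). EXPA9 was lower by 2.89 and had 3072 ± 135 in epidermis. Cellulose synthase-like genes gave 1 higher, CSLC5 by 1.61, and 3 lower, among them CSLA03 by 3.05 and CSLD2 by 1.52. Of 8 xyloglucan endotransglucosylases 1 was higher and 2 were lower. Of 7 tubulins 4 were lower and 1 was higher: TUB1 was lower by 3.76 (SE 0.31), TUB5 by 2.36 (SE 0.21) and TUA1 higher by 0.49. With the covariate 2 of 14 expansins were higher and 1, EXPA9, was lower, CSLC5 alone of the cellulose synthase-like genes was higher and 1 was lower, 0 of 8 xyloglucan endotransglucosylases were called by limma (1 lower at an unadjusted p under 0.05), and TUB1 and TUB5 were the tubulins still lower.

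Genes of protein and organelle turnover went different ways by family. The autophagy list is made up mainly of ATG8 genes, whose products coat the autophagosome membrane. Of its 11 probe sets 9 were higher and 0 lower, where 23.3% and 26.7% of 1-gene probe sets were. The list's median was 1.66. APG8A, an ATG8 gene, had 2771, 6405 and 4870 in protophloem against 215 to 677, a difference of 3.43 (SE 0.23, adjusted p = 5.03e-10). ATG8B had 654, 1731 and 1313 against 33.5 to 321, a difference of 3.57 (SE 0.25), ATG8D differed by 2.85 and ATG8H by 2.21. Of the 11, 6 had protophloem arrays above all others, where 7.65% of all probe sets tested had. ATG3, the conjugating enzyme of ATG8, had 0.25 (adjusted p = 0.310). With the GAPDH covariate the list's median was 0.96, and 3 of the 11, APG8A, ATG8B and ATG8D, stayed called. ATG8H did not (0.96, adjusted p = 0.501).

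Ubiquitin-conjugating enzymes were higher for 6 of 12 and lower for 0, where 23.3% and 26.7% of 1-gene probe sets were. UBC29 had 1615, 2337 and 1537 against 25.2 to 1046, a difference of 3.78 (SE 0.29), and UBC27 was higher by 1.91 with arrays between 2585 and 2723. Both stayed called with the covariate, as the only 2 of the 12. Of plant U-box ubiquitin ligases 4 of 8 were lower and 1 was higher. PUB23 had 80.4, 19.4 and 117 against 118 to 2151, a difference of -3.86 (SE 0.47), and its homologue PUB22, which like it restrains stress and immune responses, differed by -2.94. The higher one was PUB24 by 0.83. With the covariate PUB22 stayed lower, and 0 of the 8 were higher. Of the secreted subtilisin-like proteases 2 of 7 were higher and 0 lower: SBT4.12 had 13760, 14935 and 12497 against 14.3 to 4000, a difference of 4.50 (SE 0.31), and both stayed called with the covariate. The share of 2 in 7 is near that of all 1-gene probe sets. Serine carboxypeptidase-like proteins, which include acyltransferases, were lower for 9 of 21 and higher for 2, from SCPL34 at -3.24 to SCPL43 at 2.13. With the covariate 4 of the 21 were lower and 0 higher, and neither SCPL34 nor SCPL43 was called.

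Calcium-binding and calmodulin-binding proteins each had 1 member with a large excess. CML30, a calmodulin-like protein, had 4617, 4476 and 5279 against 17.2 to 313, a difference of 5.65 (SE 0.29), whereas 4 of the 7 calmodulin-like genes were lower, CML37 by 1.75 and CML38 by 1.37. Of 12 IQ-domain genes 4 were higher and 2 lower: iqd33 had 2482, 2337 and 1779 against 0.714 to 472 (5.28, SE 0.30), and IQD22 differed by -3.13. In neither CML30 nor iqd33 did the groups overlap. Tetraspanins, membrane proteins that organise microdomains, gave 5 higher and 4 lower of 12, with TET5 at 2.61 and TET7 at -2.56. Among 1-gene probe sets 23.3% were higher and 26.7% lower. With the covariate CML30, iqd33, IQD22, TET5 and TET7 stayed called, and CML37 and CML38 did not.

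Among transcription factors, counts of called genes were mixed. Of 13 bZIP genes 1 was higher, bZIP44 by 1.26, and 5 were lower. Of 6 WRKY genes 2 were higher, ZAP1 by 1.22 among them, and 2 were lower. Of 5 bHLH genes 3 were higher and 1 was lower, the NAC gene NAC014 was higher by 0.59, and with the covariate 0 of these 6 were called by limma, also at an unadjusted p under 0.05. WRKY6, a regulator of senescence and phosphate responses, had 8.58, 9.86 and 67.5 against 42.3 to 3372, a difference of -4.49 (SE 0.50) with overlapping groups. RL2, a small MYB-like gene of the RADIALIS type, had 2915, 3107 and 1837 against 55.1 to 209 (4.40, SE 0.21). ATC, a relative of the flowering repressor TFL1, had 5587, 5344 and 6302 in protophloem, a difference of 5.60 (SE 0.32), and its highest signal elsewhere was 2736. Of 7 auxin-response genes, IAA29 and IAA31 were higher by 1.42 and 1.23, with overlapping groups and stele means of 195 ± 9.87 and 96.0 ± 18.9 (SD, n = 3), and 2 were lower, among them GH3.1 by 1.32. Glutaredoxins ROXY1 and ROXY2, known from flower development, were higher by 2.49 and 2.45, and of 13 thioredoxins and glutaredoxins 4 were higher and 4 lower. With the covariate bZIP44, ZAP1, WRKY6, RL2, ATC and ROXY1 stayed called, while IAA29, IAA31, GH3.1 and ROXY2 did not.

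In 3 enzyme families of secondary metabolism and detoxification lower calls outnumbered higher ones, as they did over all probe sets tested. Of 12 glutathione S-transferases 7 were lower and 3 higher, and the 3 lay above all other arrays, as did 7.65% of all probe sets tested. GSTF4 is described above. GSTU18 had 2973, 4417 and 4217 against 12.8 to 205 (5.56, SE 0.17), and GSTU23 had 833, 486 and 526 against 6.55 to 153 (3.73, SE 0.25). GSTU22 was lower by 2.80. The list's median was -1.18, and with the covariate 3 were higher and 2, GSTU22 among them, lower. Of 36 UDP-glucosyltransferases, which attach sugars to hormones and phenolics, 17 were lower and 3 higher, with 6 below every other population. Among 1-gene probe sets 26.7% were lower and 23.3% higher. UGT71C1 had 5.53, 2.55 and 3.27 against 29.9 to 2266, a difference of -4.03 (SE 0.53). UGT72E2, which glucosylates lignin precursors, differed by -3.25, UGT85A2 by -3.09 and UGT76B1, which acts on defence compounds, by -3.08. UGT74F1, which acts on salicylic acid, was higher by 2.11. With the covariate 3 of the 36 were lower, UGT85A2 and UGT76B1 among them, and UGT74F1 was the 1 higher. UGT71C1 (-2.18, adjusted p = 0.331) and UGT72E2 (-2.83, adjusted p = 0.0768) lost their calls, and the list's median went from -0.43 to -0.68.

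Of 11 cytochrome P450 genes 6 were lower and 3 higher, from CYP71B6 at -2.09 to CYP71B27 at 2.23. GH3 enzymes, which conjugate auxin to amino acids, were lower for 3 of 4: GH3.17 had 28.3, 7.51 and 55.9 against 36.8 to 3915, a difference of -3.61 (SE 0.37), with columella highest (3679 ± 277). The mitochondrial NADH dehydrogenase NDB4, a non-proton-pumping enzyme, had 753, 867 and 651 against 1.29 to 49.7, a difference of 4.77 (SE 0.25). LEA and cold-regulated proteins, which protect cells against drying, were higher for 6 of 9 and lower for 0. Among 1-gene probe sets 23.3% were higher and 26.7% lower. The median of the LEA and cold-regulated list was 0.91, with LEA18 at 2.34. MSRB9, a methionine sulfoxide reductase, was lower by 3.96 (SE 0.48), and 3 of 5 genes of that family were lower and 1 higher. With the covariate 4 of the 11 cytochrome P450 genes were lower, CYP71B6 among them, and 0 were higher. No GH3 gene (0 of 4) and no LEA or cold-regulated gene (0 of 9) was called then by limma, while NDB4 and MSRB9 were. At an unadjusted p under 0.05, 2 GH3 genes were lower and 2 of the 9 higher.

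The genes of the ER body, an endoplasmic reticulum compartment of Brassicaceae that stores defence glucosidases, were low together. All 6 tested were lower, with a median of -2.83, where 26.7% of 1-gene probe sets were lower. NAI2, needed to form ER bodies, had 83.2, 23.8 and 34.2 in protophloem against 190 to 6668, a difference of -4.40 (SE 0.41, adjusted p = 5.52e-08). PYK10, the main glucosidase of root ER bodies, had 794, 289 and 918 against 2150 to 7753 (-2.99, SE 0.26), so its transcript was present on every protophloem array but below every other array. NAI1, the bHLH factor that controls these genes, differed by -2.66 (SE 0.37), with overlapping groups. The jacalin-related lectins JAL34, JAL33 and JAL22, partners or relatives of the PYK10 complex, differed by -3.98, -2.64 and -1.05. Of 11 beta-glucosidases tested, PYK10 was the 1 lower and 4 were higher, among them BGLU15 by 3.19 and BGLU41 by 3.02. With the GAPDH covariate the list's median was -2.09 and JAL33 alone stayed called, while NAI2 had -3.07 (adjusted p = 0.0577) and PYK10 -1.79 (adjusted p = 0.0602). The ER body list was put together after these values had been seen. On stele replicates 1 and 2 its median signal was 427 and 268, and on replicate 3 it was 1165.

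**Figure D3:**
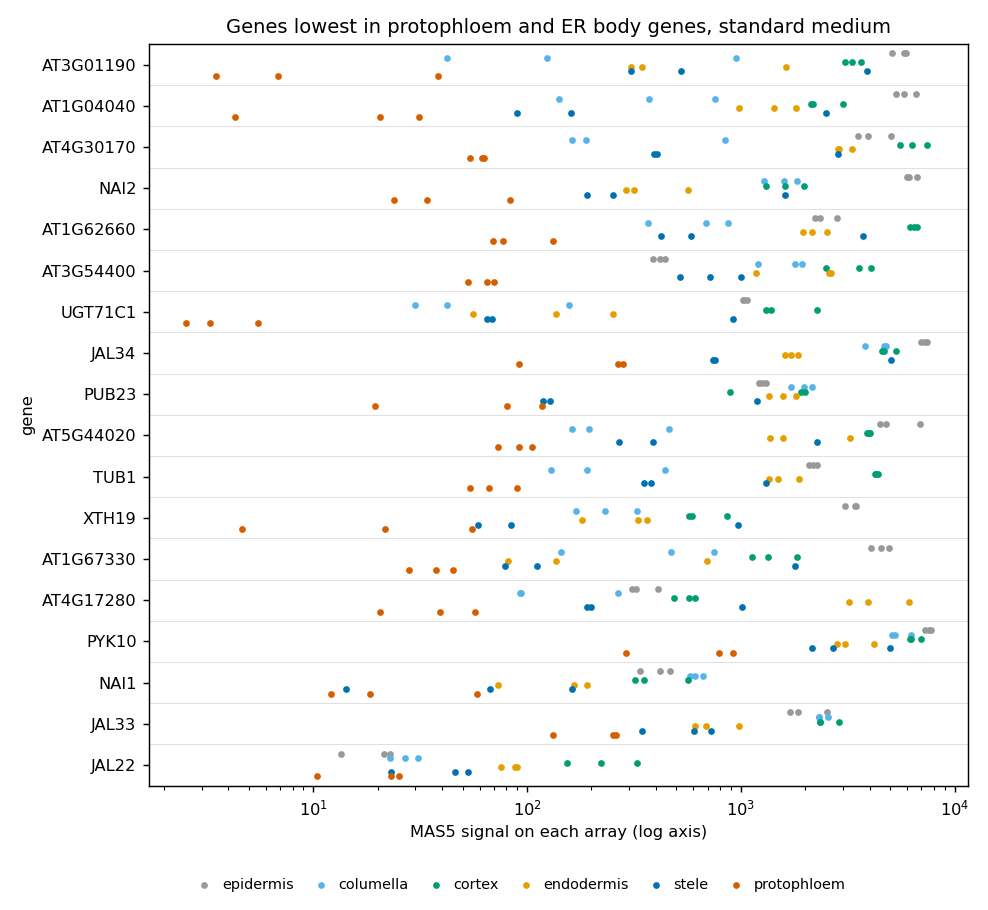
MAS5 signal (log axis) on each of the 18 standard-medium arrays, 1 point per array and colour by population. Shown are the 14 genes with the largest protophloem deficit among those without overlap, and the 4 ER body genes not among them. For the first 14 genes all protophloem points, 2.55 to 281, lie left of the others, as the rule that chose them required. PYK10 and JAL33 are also separated, while NAI1 and JAL22 overlap.

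The 14 genes with the largest deficit among those without overlap differed by -5.29 to -3.36. AT3G01190 had 38.3, 6.85 and 3.51 in protophloem against 42.1 to 5913, a difference of -5.29 (SE 0.68, adjusted p = 3.56e-06), and AT1G04040 had 31.4, 4.29 and 20.6 against 89.4 to 6626 (-5.20, SE 0.60). AT3G54400 had 65.1, 70.1 and 52.7 against 387 to 4061 (-4.03, SE 0.24), the smallest adjusted p of the 14 (6.73e-11). The population with the highest mean was epidermis for 7 of the 14, cortex for 5, columella for PUB23 and endodermis for AT4G17280. Stele was the highest for 0. Of the 14, 6 have symbols: NAI2, UGT71C1, JAL34, PUB23, TUB1 and XTH19, a xyloglucan-modifying enzyme that had 4.65, 21.6 and 55.1 against 59.2 to 3471. The median of the 14 was 316 and 235 on stele replicates 1 and 2 and 1698 on replicate 3, and without replicate 3 the 14 differences were -5.08 to -3.21, all called. With the GAPDH covariate only 2 of the 14, AT3G54400 and TUB1, stayed called.

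All 69 plastid-encoded probe sets tested and all 21 mitochondrion-encoded probe sets were higher in protophloem, with medians of 2.57 and 2.25. The plastid genes spanned photosystem subunits, NDH subunits, ribosomal proteins and the plastid RNA polymerase, and differed by 0.98 to 4.36. psbN, of photosystem II, had 409, 3232 and 2094 in protophloem and 18.3 to 811 elsewhere, a difference of 4.36 (SE 0.47). rpoC1, a subunit of the plastid polymerase, had 2368, 9675 and 5672 against 112 to 2035 (3.42, SE 0.38). Protophloem array 1 was the lowest of the 3 for both genes, and for psbN it lay below endodermis array 1 (811).

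Endodermis was the nearest population for these genes. Of the 69 plastid genes 22 were called above endodermis, with a median difference of 0.96, against 66 above stele, 68 above cortex, 68 above columella and 69 above epidermis. Only 6 of the 69 had no overlap between protophloem and the other arrays. Over all probe sets tested 7.65% had protophloem arrays above all others, so the plastid count is near that share. Of the 21 mitochondrial probe sets, which include repeated ones for nad1 and nad5, 12 were called above endodermis and 7 had no overlap.

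Across the 3 protophloem arrays these levels ran opposite to the GAPDH ratio. The median plastid signal was 643, 3992 and 2655 on protophloem arrays 1, 2 and 3, whose GAPDH ratios were 0.0830, 0.0195 and 0.0473, so the order was opposite. The mitochondrial medians, 253, 1355 and 598, had the same order. The endodermis arrays, with GAPDH ratios of 0.147 to 0.203, had plastid medians of 909 to 1288, and the columella arrays, with 0.0884 to 0.301, had 154 to 208. With the ratio as a covariate the list medians were 0.24 and 0.12, and 0 of the 69 and 0 of the 21 were called by limma, with 4 and 1 higher at an unadjusted p under 0.05. The part of RNA completeness in the organelle result was not tested beyond these values.

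**Figure D4:**
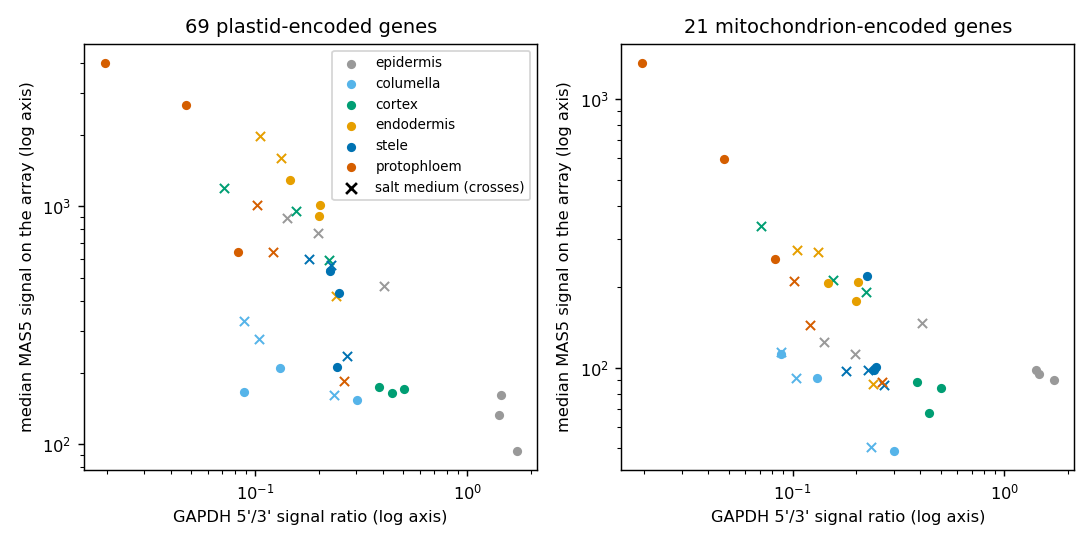
Median MAS5 signal of the plastid-encoded (left) and mitochondrion-encoded genes (right) on each of 36 arrays against the GAPDH 5'/3' signal ratio, both axes logarithmic, circles for standard medium and crosses for salt medium, colour by population. The ratios of the 3 protophloem arrays on standard medium lie below those of the 15 other standard arrays, and the one with the lowest ratio, 0.0195, has the highest medians, 3992 and 1355.

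The protophloem contrast was measured again on the 18 salt arrays, which are separate samples. There 1949 probe sets (11.8%) were higher and 1952 (11.9%) lower of 16467 tested. The summed phloem signal was 838 to 1514 on the protophloem salt arrays, below the 2528 to 4436 of standard medium. Without protophloem salt replicate 2 these counts were 1195 and 1012, and without protophloem salt replicate 1 the lower count was 1226. On the salt arrays replicate 3 differed from replicates 1 and 2 in all 6 populations, with the highest GAPDH ratio, the lowest plastid median and the highest sum of epidermis markers (protophloem 485 against 66.8 and 58.1). With salt replicates 1 and 2 alone, a choice made after seeing the data, 2847 were higher and 3182 lower. Of 3546 probe sets higher on standard medium and tested with salt, 1428 (40.3%) were also called higher and 29 were called lower. For 4793 lower ones these numbers were 1255 (26.2%) and 66. Of the 910 above every other population 864 were tested with salt and 654 were called higher, and the medians were 1.59 with salt and 2.83 on standard medium. Of the 411 below, 191 of 409 tested were called lower.

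The most enriched genes were again high in protophloem on the salt arrays, and the organelle genes were not. All 24 most enriched genes were called higher, by 4.36 to 6.26. AT3G20450 differed by 6.14, GSTF4 by 5.67 and CLE26 by 3.16, each less than on standard medium. SWEET8 (3.42), CLE41 (3.26) and AMY1 (2.40) were also called higher. All 6 ER body genes were called lower, with a median of -1.77, and 7 of the 14 most depleted genes were. With salt replicates 1 and 2 alone all 24, all 6 and all 14 were called. In contrast, 0 of 69 plastid-encoded and 0 of 21 mitochondrion-encoded probe sets were called higher by limma, with medians of -0.20 and -0.12. Only 1 plastid gene was called lower. At an unadjusted p under 0.05, 0 of either list were higher there. With salt replicates 1 and 2 alone these medians were 0.03 and 0.08, with 6 plastid genes called higher and 8 lower. Then 0 mitochondrial probe sets were called by limma (2 higher and 1 lower at an unadjusted p under 0.05). The GAPDH ratios there were 0.102 to 0.263 in protophloem and 0.0713 to 0.406 in the others. Of the autophagy list 2 of 11 were called higher and 1 lower, with a median of 0.10.

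**Figure D5:**
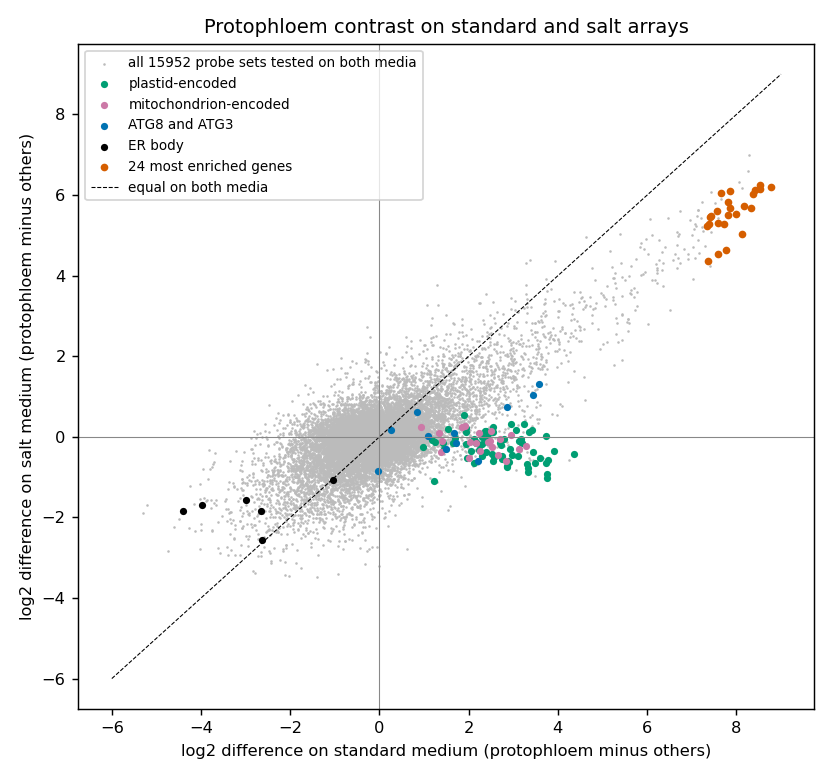
Log2 difference between protophloem and the mean of the other 5 populations on standard medium (horizontal) and on salt medium (vertical) for probe sets tested on both, with 5 groups coloured and the line of equal values dashed. The 24 most enriched genes lie at 4.36 to 6.26 on the vertical axis, below the line, the ER body genes lie in the lower left, and the organelle-encoded genes lie near 0 on the vertical axis.

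The difference between these contrasts was tested as an interaction on all 36 arrays. It passed for 3587 of 17633 probe sets (20.3%). Among them were 65 of 69 plastid-encoded and 17 of 21 mitochondrion-encoded probe sets and 8 of 11 of the autophagy list. All 24 most enriched genes passed too, differing between media in size while keeping their direction. They were chosen for their standard-medium difference, which the interaction subtracts, so a smaller difference with salt was favoured by that choice. EXLA1, higher by 3.66 on standard medium, had -0.53 (adjusted p = 0.489) with salt. SWEET8 differed by -0.29 between media (adjusted p = 0.661) and JAL33 by 0.07 (adjusted p = 0.913).

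The remaining lists of more than 5 genes gave mixed counts. Of 6 histone genes 3 were higher and 1 lower, of 12 RNA polymerase subunits 1 and 2, of 9 nitrate and peptide transporters 4 and 3, and of 6 LSM splicing genes 1 and 3. With the covariate 1 transporter was higher and 1 lower, and 0 genes of the other 3 lists were called by limma, also at an unadjusted p under 0.05. Over the lists other than those assembled afterwards, 418 probe sets were tested, of which 185 were higher and 109 lower, organelle genes included.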

How the data were processed

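The deposited values are MAS5 signal intensities, 1 per probe set and array, which the authors made with MAS5 (named in the submitters' processing notes). Its version and settings were not given in the sources used here. Per the labels' protocols, total RNA of sorted protoplasts was amplified in a two-cycle procedure before hybridisation to ATH1 arrays. Each array holds 22810 probe sets, and the number of arrays limits the precision.

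Signals were used as deposited, as log2(signal + 16). Probe sets above the array's 40th percentile on at least 3 of the 18 arrays were tested, 16743 in all. The 3 protophloem arrays alone could meet this rule, so genes high only there were tested. Limma 3.58.1 (R 4.3.3) fitted 6 population means with a trend in eBayes. Protophloem was contrasted with the unweighted mean of the other 5 and with each of them, and p-values were Benjamini-Hochberg adjusted over all probe sets tested. Salt arrays were fitted the same way, and the difference between media as an interaction on 36 arrays. Control ratios were tested by exact permutation over 816 splits. The fit was tested on simulated data. Tables and figures were made with Python 3.11.15, pandas 2.3.3, numpy 2.4.6 and matplotlib 3.10.9.

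Of the probe sets tested 9341 name exactly 1 gene, and related genes of large families may share a probe set. Symbols and loci are those of the platform annotation matched to RefSeq, in which most AT-coded genes carry no symbol. The rule for named genes took the 24 largest excesses and 14 largest deficits among called 1-gene probe sets without overlap, up to 4 members a list by smallest adjusted p, all markers, and the 10 genes with the largest smallest difference. The other symbol-bearing genes were chosen after their values were seen, as were the lists for ER body, jacalin-related lectin, IQ-domain, glycosyl hydrolase 9, subtilase, U-box, methionine sulfoxide reductase, GH3, BRX and starch-breakdown genes. Members and lists were chosen with earlier results of these data known. Alternatives changed the offset, the filter, the normalisation, the arrays in the fit, array weights, a replicate block and the GAPDH ratio as a covariate.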

Additional observations from a re-analysis of the deposited data

Results flagged for a closer look

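These results differed between media by the interaction test (limma, adjusted p under 0.05), in which the protophloem contrast on salt arrays was set against that on standard arrays. It passed for 3587 of 17633 probe sets (20.3%), among them 24 of the 24 most enriched and 6 of the 14 most depleted genes. These 24 and 14 were chosen for their standard-medium difference, so a smaller one with salt was favoured by that choice. The test also passed for 65 of 69 plastid-encoded and 17 of 21 mitochondrion-encoded probe sets. So did 8 of 11 of the autophagy list and 3 of 6 ER body genes. As salt minus standard on the log2 scale, the protophloem difference of AT3G20450 changed by -2.38, that of GSTF4 by -2.67 and that of CLE26 by -3.35, and all 3 were called higher on both media. APG8A changed by -2.40 and EXLA1 by -4.19, the latter to no call with salt. The deficits of NAI2, JAL34 and PYK10 were smaller with salt by 2.54, 2.29 and 1.43, and the change of TMT1 was 1.69. The GAPDH 5'/3' ratios of the protophloem arrays also differed, 0.0195 to 0.0830 on standard medium and 0.102 to 0.263 with salt, and their part in these differences was not tested.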

How the results depend on the processing

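With the GAPDH ratio as a covariate 1203 probe sets were higher, 772 lower, 530 above and 101 below every other population, and 64 list members were called in place of 294. The count below every other population was 212 with an offset of 64, 640 without the columella arrays and 652 without the stele arrays, the last 2 with 1 comparison fewer to pass. Leaving out each array in turn gave 2801 to 3882 higher, 3968 to 5238 lower, 751 to 944 above and 327 to 501 below. List members called, counted without each protophloem array only, were 249 to 268. On salt arrays it gave 1195 to 2235 higher and 1012 to 2253 lower, and with salt replicates 1 and 2 alone the lower count was 3182. The control ratios ranged from -3.48 to -2.43 for GAPDH (exact p from 0.001471 to 0.02941), 0.08 to 0.52 for actin and -0.73 to -0.21 for ubiquitin. LHW, which was not called, turned from -0.05 to 0.15 with array weights, 1.16 with the covariate, 0.012 without the endodermis arrays, 0.16 without the stele arrays and 0.44 without protophloem replicate 2. Without protophloem replicate 3 it was -0.35. CLE40 turned to -0.43 with the covariate. The cause was not tested. The main fits used no pairing, since the labels do not say what a replicate number shares. Deviations of same-numbered samples from their population means were correlated over 45 pairs a medium. They averaged 0.0606 on standard medium (-0.246 to 0.350) and 0.177 with salt (-0.0998 to 0.451). Pairs of other numbers averaged -0.0289 and -0.0811. For numbers 1, 2 and 3 the averages were 0.00454, 0.0719 and 0.106 on standard medium and 0.117, 0.152 and 0.263 with salt. With the replicate number as a block 3780 were higher, 5011 lower, 913 above and 426 below, 296 list members were called, 2227 and 2320 were called on salt arrays, and PHV lost its call.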
